A study of Homo sapiens with 4 samples.

Results

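The 46 genes described here drive cells into and through mitosis, and were followed in 4 RNA-seq libraries in which 52402 gene symbols were counted. They are the mitotic cyclins with cyclin B1 (CCNB1) at their head, the kinases, checkpoint, kinetochore and motor proteins that work with them, and the proteins that build and cut the spindle. The list was given by gene name, and all 46 names were found in the symbol column of the count tables. SKOV3 and OVCAR3, the labelled sources of the cultures, are established lines from human ovarian cancers. Each was sequenced once as a mock control and once as a knockout (KO), in which CRISPR-Cas9 was aimed at the envelope gene of HERV-K119, an endogenous retrovirus. Per the labels all 4 cultures, mock included, carried the same treatment, 2 days of hygromycin at 100 μg/mL that began about 18 h after transfection. No source used here says whether the knockout cells were a pool or 1 clone. Each of the 4 combinations of label and genotype was 1 library, so that a difference between mock and knockout of 1 label could not be checked in replicates.

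Mitosis begins when cyclin B and its kinase CDK1 become active, which the CDC25 phosphatases promote. The kinetochores, protein plates on the centromeres, then bind spindle microtubules, and the spindle checkpoint holds back the anaphase-promoting complex (APC/C) until every chromosome is attached. Released, the APC/C and its coactivator CDC20 mark cyclin B1 and securin for destruction, the sister chromatids part, and a central spindle guides the cut between the daughter cells. Most of these messages accumulate in G2 and mitosis, so in cultured tumour cells they are widely read as marks of dividing cells. In bulk RNA, a larger share of cells in G2 or mitosis and more RNA of a gene per cell cannot be told apart.

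Total counts lay between 15145483 and 22057693 per library, and a count of 0 allows up to 0.133 to 0.204 CPM (counts relative to the library total, scaled by the trimmed mean of M values, TMM). The 46 genes had between 12 counts (SPC25 in the OVCAR3 mock library) and 9016 counts (MKI67 in the SKOV3 mock library). Epithelial markers were present in all libraries, with EPCAM between 268 and 352 CPM. Of the ovarian markers, WT1 had 0 CPM in all 4 and PAX8 between 3.33 and 8.83 CPM. MUC16 had 0.04 and 0.06 CPM in the SKOV3 mock and knockout libraries and 2.74 and 6.18 CPM in the OVCAR3 ones. ERBB2, listed with CDKN2A for the identity of the lines, had 58.5 and 55.7 CPM in the SKOV3 pair and 73.3 and 32.0 CPM in the OVCAR3 pair. The SKOV3 line is known to lack CDKN2A, yet the libraries with that label held 90.6 (mock) and 91.2 CPM (knockout) of it, so SKOV3 and OVCAR3 are used here as labels. The OVCAR3 KO library stood apart in composition, with 21.9% of its counts in mitochondrially encoded rows against 5.16% to 5.93% in the others.

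What the genes share outside the list itself is visible in their promoters. The CHR element (TTTGAA or TTCGAA) is the site of the MuvB complexes that time transcription in G2, and the CCAAT box (CCAAT) is the site of the factor NF-Y. Both were searched on both strands in the 250 bases before the RefSeq start (GRCh38.p14), where 40 of the 46 genes matched. AURKA, BUB3, TTK, UBE2C, BIRC5 and TPX2 had no entry. A CHR stood in 22 of the 40 windows (55%), against 11.7% of 14629 protein-coding promoters and 14.6% of 27305 promoters of all kinds. A CCAAT box stood in 32 of 40 (80%), against 34.5% and 33%, and both motifs stood in 20 of 40 (50%), against 4.57% and 5.24%. The 250 bases before 7 genes are shown 5′ to 3′ on the strand of the gene, with the matches in capitals, because these are cyclin B1 and, among the genes with a window, the 3 lowest and the 3 highest of the OVCAR3 ratios described further on. The windows are chr5:69166900-69167149 (plus strand) for CCNB1, chr16:23678639-23678888 (plus) for PLK1, chr1:43358731-43358980 (plus) for CDC20, chr20:3786701-3786950 (plus) for CDC25B, chr4:120066849-120067098 (minus) for MAD2L1, chr1:197146670-197146919 (minus) for ASPM and chr11:28108157-28108406 (minus) for KIF18A. ATTGG and TTCAAA are the same motifs read on the other strand.
CCNB1: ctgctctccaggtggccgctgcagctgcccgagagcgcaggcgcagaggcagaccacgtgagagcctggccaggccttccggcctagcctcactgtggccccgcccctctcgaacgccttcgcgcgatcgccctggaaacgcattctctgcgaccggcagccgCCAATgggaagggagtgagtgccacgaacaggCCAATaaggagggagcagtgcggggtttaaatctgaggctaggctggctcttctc
PLK1: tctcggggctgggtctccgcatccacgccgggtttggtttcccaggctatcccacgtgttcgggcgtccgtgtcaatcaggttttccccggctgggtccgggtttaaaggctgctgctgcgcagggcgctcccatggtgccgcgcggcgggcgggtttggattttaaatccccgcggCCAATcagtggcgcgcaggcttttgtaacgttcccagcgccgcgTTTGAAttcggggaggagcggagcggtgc
CDC20: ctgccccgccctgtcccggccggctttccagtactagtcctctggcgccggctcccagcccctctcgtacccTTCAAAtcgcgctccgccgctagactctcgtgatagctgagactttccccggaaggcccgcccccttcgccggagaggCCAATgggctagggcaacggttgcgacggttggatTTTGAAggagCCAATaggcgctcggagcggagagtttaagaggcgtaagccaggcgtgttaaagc
CDC25B: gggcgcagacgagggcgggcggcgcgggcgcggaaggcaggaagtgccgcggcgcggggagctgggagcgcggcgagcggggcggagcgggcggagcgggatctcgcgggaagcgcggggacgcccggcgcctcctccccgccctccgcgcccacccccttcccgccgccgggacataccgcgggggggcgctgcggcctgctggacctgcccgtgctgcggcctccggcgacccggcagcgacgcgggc
MAD2L1: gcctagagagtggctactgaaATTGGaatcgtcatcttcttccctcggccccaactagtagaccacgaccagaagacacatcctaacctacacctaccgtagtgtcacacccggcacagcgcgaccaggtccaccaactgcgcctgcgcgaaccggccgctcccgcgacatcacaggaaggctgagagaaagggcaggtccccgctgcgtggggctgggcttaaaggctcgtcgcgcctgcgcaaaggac
ASPM: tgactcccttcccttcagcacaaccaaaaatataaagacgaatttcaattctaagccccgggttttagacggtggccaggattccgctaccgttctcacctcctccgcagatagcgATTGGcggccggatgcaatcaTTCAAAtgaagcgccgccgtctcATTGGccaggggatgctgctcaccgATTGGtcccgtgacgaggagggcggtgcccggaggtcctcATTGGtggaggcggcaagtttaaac
KIF18A: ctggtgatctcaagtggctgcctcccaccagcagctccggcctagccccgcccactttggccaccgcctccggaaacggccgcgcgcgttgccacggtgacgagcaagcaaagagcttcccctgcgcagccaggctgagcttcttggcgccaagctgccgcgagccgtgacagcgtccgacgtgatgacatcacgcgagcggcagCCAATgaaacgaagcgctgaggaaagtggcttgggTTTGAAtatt
The CCNB1 window held 2 CCAAT boxes and the MAD2L1 window 1, neither with a match to these CHR spellings. The CDC25B window held no match to either motif, and the windows of PLK1, CDC20, ASPM and KIF18A held both. Over all windows, the median OVCAR3 ratio was 0.20 for the 22 genes with a CHR and 0.32 for the 18 without one. In PLK1 and CDC20 a CHR began at -29 and at -65, counted back from the start, and in KIF18A at -10. A match of this kind is a description of the letters and was not tested as a site.

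In the mock libraries, the parallel controls, the genes were mostly a little lower under the OVCAR3 than under the SKOV3 label. Of 45 genes with at least 1 CPM in 1 of the 2 mock libraries, 37 had a log2 ratio of OVCAR3 over SKOV3 below 0, against 49.5% of 13721 measured genes, with a median over all 46 of -0.17 against 0.01 for all genes. The phosphatase gene CDC25B, which activates CDK1 at mitotic entry, had 300.4 CPM in the OVCAR3 mock library and 110 CPM in the SKOV3 one (1.45, exact 95% counting interval 1.38 to 1.52). It alone passed 2-fold upward, where 9.47% of measured genes did. The cyclin A2 gene CCNA2, at -1.12, and the kinesin gene KIF20B, at -1.25, passed 2-fold downward, where 5.52% of genes did. CCNB1 had 125 CPM under the OVCAR3 and 120 CPM under the SKOV3 label (0.06, -0.03 to 0.14), with an interval that spanned 0.

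**Figure D1:**
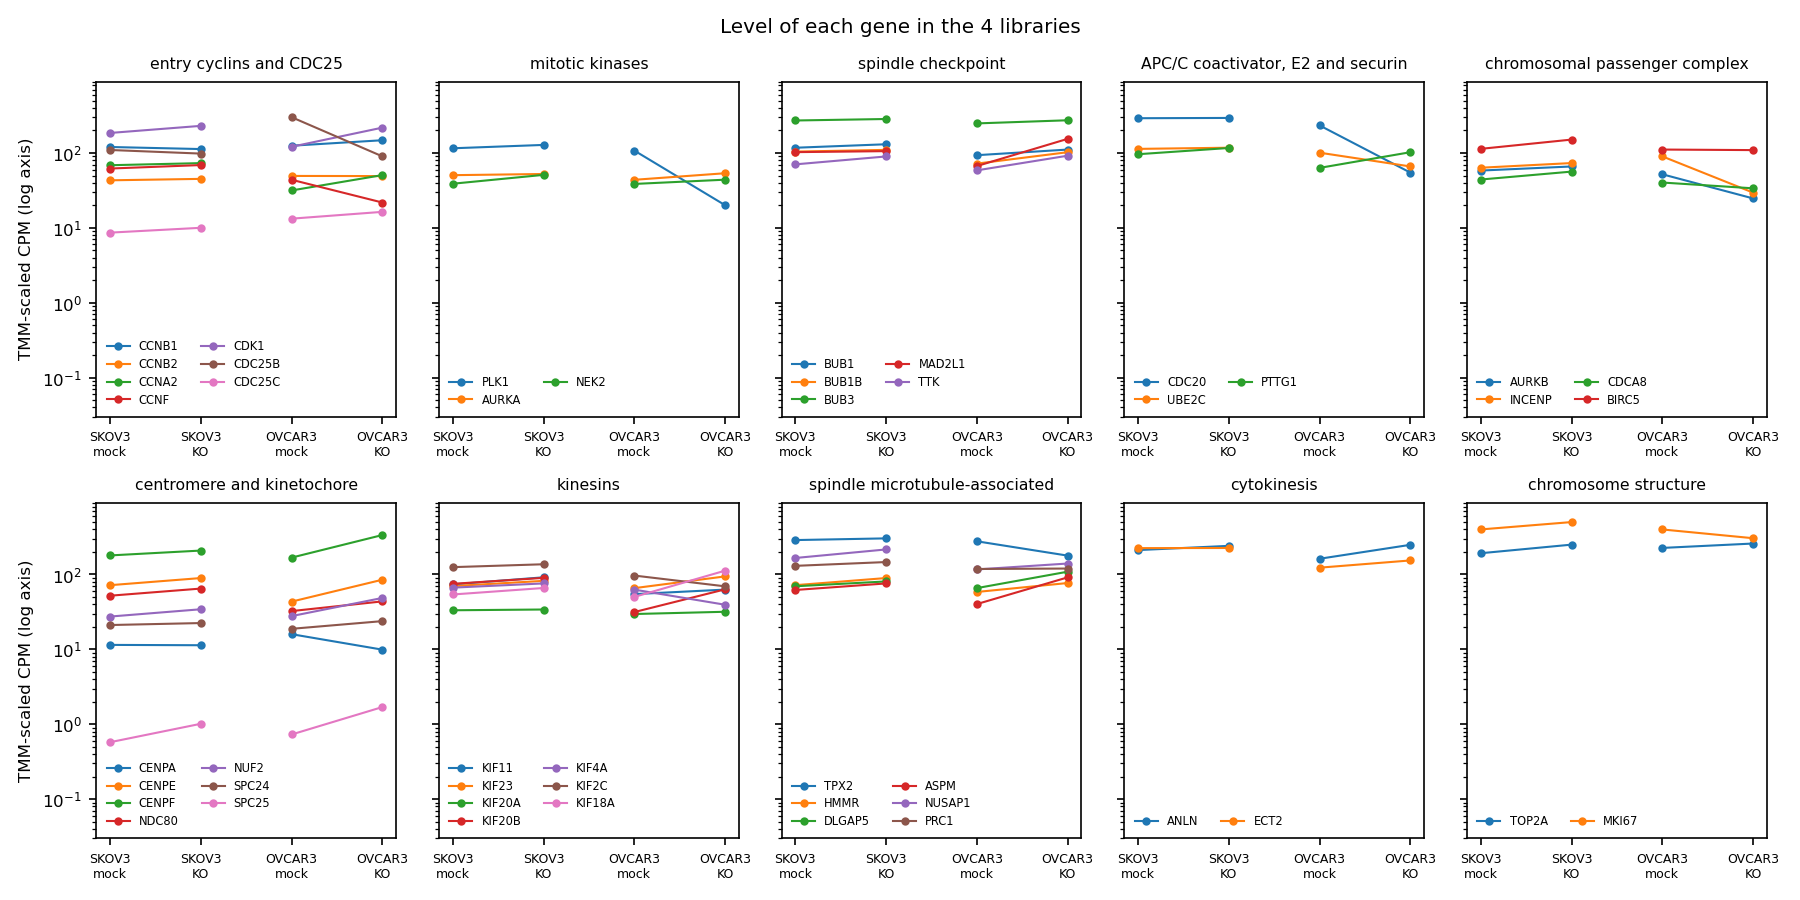
Level of each of the 46 genes in the 4 libraries, as TMM-scaled CPM on a log axis, in 10 panels by function; each point is 1 library and lines join mock and KO of 1 label. The SKOV3 lines are nearly flat, while in OVCAR3 PLK1 goes from 108 to 20.1 CPM and MAD2L1 from 67.0 to 154 CPM.

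In the SKOV3-labelled pair the genes were slightly higher in the knockout library, nearly all of them, and none by 2-fold. Their summed level was 5603 CPM in the knockout and 4926 CPM in the mock library. Of 46 genes 43 had a log2 ratio of KO over mock above 0, against 51.1% of 13524 measured genes, and the median was 0.20 against 0.01 for all genes. The exact 95% counting interval lay above 0 for 31 of the 46, against 17.6% of all measured genes, and below 0 for 2, against 18.1%. Intervals are narrower for genes with more counts, and these shares were not taken over genes of matched counts. No gene passed 2-fold in either direction, where 0.799% of all genes did upward and 0.739% downward. In the same pair 7 of 8 epithelial markers had ratios below 0, with the interval below 0 for 6 of them, and NEAT1, a nuclear RNA, had 446 CPM in the mock and 286 CPM in the knockout library. The part of these shifts in the ratios of the 46 genes was not tested. The interval holds counting error alone, and the spread between cultures of 1 kind was not measured.

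Cyclin B1 was an exception in SKOV3. CCNB1 had 120 CPM in the mock and 113 CPM in the knockout library (-0.09, -0.18 to -0.005), so its interval reached almost to 0. CDC25B was the lowest of the 46 there, at 110 CPM in the mock and 98.1 CPM in the knockout library (-0.16, -0.25 to -0.07). CENPA, the histone variant that marks centromeres, had a ratio of -0.01, the cytokinesis regulator ECT2 one of 0.01 and the APC/C coactivator CDC20 one of 0.01, each with an interval that spanned 0. The signs of these 3 depended on the scaling.

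The highest SKOV3 ratios belonged to genes of several functions. BIRC5 (survivin), a subunit of the chromosomal passenger complex, had 114 CPM in the mock and 151 CPM in the knockout library (0.41, 0.33 to 0.49). NEK2, a kinase that parts the centrosomes, had 38.8 and 51.0 CPM (0.39, 0.25 to 0.53), and TOP2A, the topoisomerase that untangles sister chromatids, had 192 and 250.3 CPM (0.38, 0.32 to 0.44). NUSAP1, which bundles spindle microtubules, had 166 and 216 CPM (0.38, 0.31 to 0.45). The kinetochore gene SPC25 had the highest ratio of all, 0.71, but on 13 and 16 counts, and its interval of -0.33 to 1.99 spanned 0. By function, the medians ran from 0.05 for CDC20 with the ubiquitin-conjugating enzyme gene UBE2C and securin (PTTG1) to 0.35 for TOP2A with the proliferation marker MKI67. All 7 kinesin genes (median 0.23), all 6 genes of spindle microtubule proteins (0.25) and all 4 passenger complex genes (0.28) had ratios above 0. The 7 centromere and kinetochore genes had a median of 0.32, with 6 above 0.

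**Figure D2:**
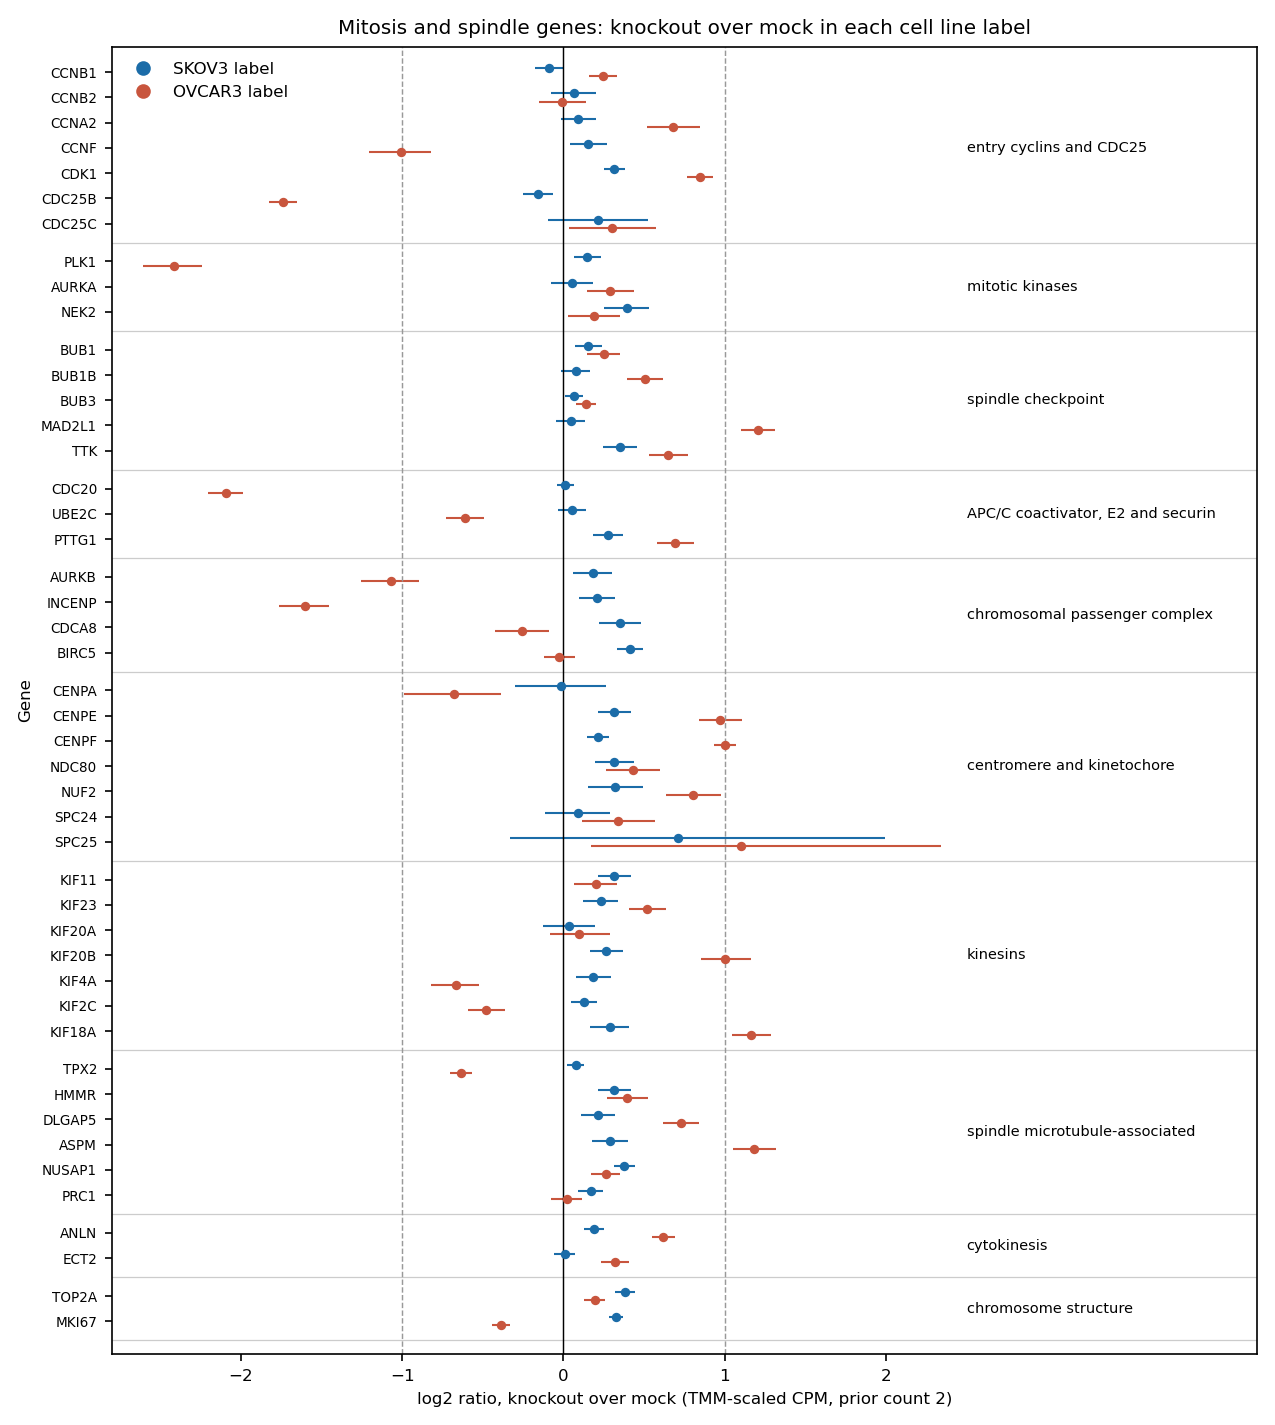
Log2 ratio of KO over mock for each of the 46 genes under the SKOV3 label (blue) and the OVCAR3 label (red), grouped by function; bars are exact 95% counting intervals with 1 library per group, and dashed lines mark 2-fold. SKOV3 ratios stay between -0.16 and 0.71, and OVCAR3 ratios run from -2.42 (PLK1) to 1.20 (MAD2L1).

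In the OVCAR3-labelled pair the differences of the same genes were larger and went in both directions. The polo-like kinase gene PLK1, CDC20, CDC25B and the passenger complex gene INCENP were between 3.04-fold and 5.33-fold lower in the knockout library, while the checkpoint gene MAD2L1, the spindle pole gene ASPM and the kinesin gene KIF18A were 2.24-fold to 2.31-fold higher. The log2 ratios of the 46 genes had an SD of 0.86, against 0.16 in SKOV3, and those of all protein-coding genes had an SD of 1.10 and 0.29, so the 46 genes spread less than that background in both pairs. That background runs down to 1 CPM, where counting error widens ratios, and no background of matched level was made. The summed level hardly differed, at 4570 CPM in the knockout and 4390 CPM in the mock library. Of the 46 genes 31 were above 0, against 56.2% of 15560 measured genes. By the size rule 6 of 46 (13%) were 2-fold lower, against 15.4% of all genes and 18.3% of protein-coding ones, and 6 were 2-fold higher, against 22.5% and 13%, so neither share was above its background. The counting interval lay above 0 for 29 of 46, against 44.8% of all genes, and below 0 for 13, against 34.9%. These shares, and those past 2-fold, were not taken over genes of matched counts. The scaling of this pair is uncertain: the median ratio of all measured genes was 0.16, and other scalings moved it by between -0.28 and 0.10. All measured genes past 2-fold split into 3504 higher and 2390 lower, and into 2863 and 3406 with TMM factors from all genes with a count. Under all 6 scalings 21 of the 46 were above 0 and 13 below 0, and the sign of the other 12 depended on the scaling. CDC25B, PLK1, CDC20 and INCENP were 2-fold lower under every scaling, and no gene was 2-fold higher under every one.

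Genes that start mitosis went both ways in OVCAR3. CCNB1 (chr5:69167150-69178245) had 125 CPM in the mock and 148 CPM in the knockout library (0.24, 0.16 to 0.33), but its ratio was -0.05 with TMM factors from all genes with a count, so its direction was not settled. Its partner kinase gene CDK1 had 121 CPM in the mock and 218 CPM in the knockout library (0.85, 0.77 to 0.93), the highest of the 7 entry genes. With a trend on GC content and transcript length removed CDK1 had 0.07, and CCNA2, at 0.30, was the highest of the 7. CDC25B had 300.4 CPM in the mock and 90.1 CPM in the knockout library (-1.74, -1.83 to -1.65), the lowest of them. The mock library was the high one here: the CDC25B level of the knockout was close to the 110 and 98.1 CPM of the SKOV3-labelled pair. CCNF, cyclin F, which guides a ubiquitin ligase in G2, had 43.9 and 21.8 CPM (-1.01, -1.20 to -0.82). The median of the 7 genes was 0.24, and it turned to -0.05 with the TMM factors from all genes with a count. It was -0.11 with a trend on GC content and transcript length removed.

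PLK1 (chr16:23678889-23690367), which acts at mitotic entry, at the centrosomes and in cytokinesis, had 116 and 128 CPM in the SKOV3 mock and knockout libraries, 108 CPM in the OVCAR3 mock library and 20.1 CPM in the OVCAR3 knockout library. That library held 296 counts of PLK1 against 1769 in its mock, a log2 ratio of -2.42 (-2.60 to -2.24), the lowest of the 46 genes. The 3 other libraries were within 1 narrow band, and the OVCAR3 knockout lay far under it. AURKA, the kinase of spindle poles, had 43.8 and 53.6 CPM in OVCAR3 (0.29, 0.14 to 0.44), and NEK2 had 38.6 and 44.0 CPM (0.19, 0.03 to 0.35). The signs of these 2 depended on the scaling. The OVCAR3 median of the 3 kinase genes was 0.19, or -0.27 with a trend on GC content and transcript length removed.

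All 5 spindle checkpoint genes had ratios above 0 in OVCAR3, with a median of 0.51, or 0.24 with a trend on GC content and transcript length removed, although BUB1 and BUB3 did not keep their sign under every scaling. MAD2L1 (chr4:120055623-120066848), which encodes the MAD2 protein that captures CDC20, had 103 and 106 CPM in the SKOV3 mock and knockout libraries and 67.0 and 154 CPM in the OVCAR3 ones (1.20, 1.10 to 1.31). The OVCAR3 mock library was the lowest of the 4 and its knockout the highest. BUB3, a scaffold of the checkpoint, had 248 and 273 CPM in the OVCAR3 pair (0.14, 0.08 to 0.20), the smallest ratio of the 5. CDC20 (chr1:43358981-43363203) had 291 and 294 CPM in the SKOV3 mock and knockout libraries, 233 CPM in the OVCAR3 mock library and 54.6 CPM in the OVCAR3 knockout library (-2.09, -2.21 to -1.98). PTTG1, which encodes securin, the guard of separase and itself a target of the APC/C, had 63.2 and 102 CPM in OVCAR3 (0.69, 0.58 to 0.81).

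The chromosomal passenger complex carries the kinase Aurora B, with INCENP as its scaffold and survivin and borealin as the parts that find the centromere. All 4 of its genes had ratios below 0 in OVCAR3 and above 0 in SKOV3, and the sign of BIRC5 in OVCAR3 depended on the scaling. BIRC5 was also above 0 in OVCAR3, at 0.18, with a trend on GC content and transcript length removed. INCENP had 63.5 and 73.3 CPM in the SKOV3 mock and knockout libraries and 90.0 and 29.5 CPM in the OVCAR3 ones (-1.60, -1.76 to -1.45). AURKB had 51.9 and 24.7 CPM in the OVCAR3 pair (-1.07, -1.25 to -0.89). BIRC5 had 111 and 109 CPM (-0.02, -0.12 to 0.07), an interval that spanned 0.

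Of the 7 genes of the centromere and kinetochore 6 were higher in the OVCAR3 knockout, and their median was 0.80. With a trend on GC content and transcript length removed it was 0.32, and NDC80 had -0.15. CENPF, a large protein of the outer kinetochore, had 180 and 209 CPM in the SKOV3 pair and 168 and 336 CPM in the OVCAR3 pair (1.00, 0.93 to 1.07). It lay just inside the 2-fold rule, as did KIF20B (1.00), with CENPE just outside it, at 0.97. SPC25, a subunit of the NDC80 complex that grips microtubules, had 0.73 and 1.70 CPM, on 12 and 25 counts (1.10, 0.17 to 2.34). CENPA was the exception, at 15.9 CPM in the mock and 9.91 CPM in the knockout library (-0.68, -0.99 to -0.39).

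The 7 kinesin genes, motors that push, pull or take apart microtubules, were split in OVCAR3, with 5 above 0 and 2 below. KIF18A, which dampens chromosome movement at the spindle centre, had 54.0 and 66.0 CPM in the SKOV3 pair and 50.2 and 112 CPM in the OVCAR3 pair (1.16, 1.04 to 1.29). KIF20B, a motor of late cytokinesis, had 31.5 and 63.3 CPM in OVCAR3 (0.85 to 1.17). KIF4A, a chromosome-bound kinesin that also caps the central spindle, was the lowest, at 62.8 and 39.4 CPM (-0.67, -0.82 to -0.52).

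Spindle microtubule proteins and the genes of cytokinesis and chromosome structure gave a similar spread. ASPM, which focuses the spindle poles, had 40.3 CPM in the OVCAR3 mock and 91.6 CPM in the knockout library (1.18, 1.05 to 1.32). TPX2, the activator of Aurora A on the spindle, had 277 and 178 CPM (-0.64, -0.71 to -0.57), and it alone of the 6 spindle genes was below 0. The cytokinesis genes ANLN, which encodes the ring protein anillin, and ECT2 had 0.62 (0.55 to 0.69) and 0.32 (0.23 to 0.41). Removing a trend on GC content and transcript length took the median of the cytokinesis genes from 0.47 to 0.003. It took that of the 6 spindle genes from 0.33 to 0.008. MKI67, which encodes the proliferation antigen Ki-67, had 399 CPM in both mock libraries, 501 CPM in the SKOV3 and 305 CPM in the OVCAR3 knockout library (-0.39, -0.44 to -0.33 in OVCAR3). TOP2A had 226 and 259 CPM in the OVCAR3 pair (0.19, 0.13 to 0.26), and its sign depended on the scaling.

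Ratios of the counts of 2 genes within 1 library do not depend on the scaling. The pairs given first join genes with OVCAR3 differences in opposite directions, or of very different size, so they restate those differences without a scaling factor. They also join transcripts of unlike GC content, 57.1% for PLK1 and 43.2% for CCNB1, and 57.9% for CDC20 and 39.4% for MAD2L1. The part of GC content in these ratios was not tested. There were 0.961 PLK1 counts per CCNB1 count in the SKOV3 mock (exact 95% interval 0.911 to 1.01), 1.14 in the SKOV3 knockout (1.06 to 1.21) and 0.862 in the OVCAR3 mock library (0.808 to 0.919), and 0.136 in the OVCAR3 knockout library (0.120 to 0.153). Counts of CDC20 per count of MAD2L1 were 2.84, 2.78 and 3.48 in the same 3 libraries and 0.353 (0.326 to 0.383) in the OVCAR3 knockout. In both pairs of ratios the OVCAR3 knockout library lay outside the intervals of the 3 others, and the furthest from them. The SKOV3 knockout for PLK1 per CCNB1 and the OVCAR3 mock for CDC20 per MAD2L1 (3.25 to 3.72) also lay outside the intervals of the others. The ratio of CDK1 to CCNB1 counts was higher in the knockout of both labels, at 2.04 (1.93 to 2.16) against 1.54 (1.47 to 1.62) in SKOV3 and at 1.47 (1.39 to 1.56) against 0.968 (0.910 to 1.03) in OVCAR3. For INCENP against BIRC5 it was 0.560 in the SKOV3 mock, 0.486 in the SKOV3 knockout, 0.810 in the OVCAR3 mock and 0.270 (0.243 to 0.301) in the OVCAR3 knockout library. The cyclin pair CCNB2 and CCNB1 gave 0.359, 0.400, 0.395 and 0.332 (0.305 to 0.362) in the same order, and there the interval of the OVCAR3 knockout overlapped that of the SKOV3 mock library (0.333 to 0.386).

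**Figure D3:**
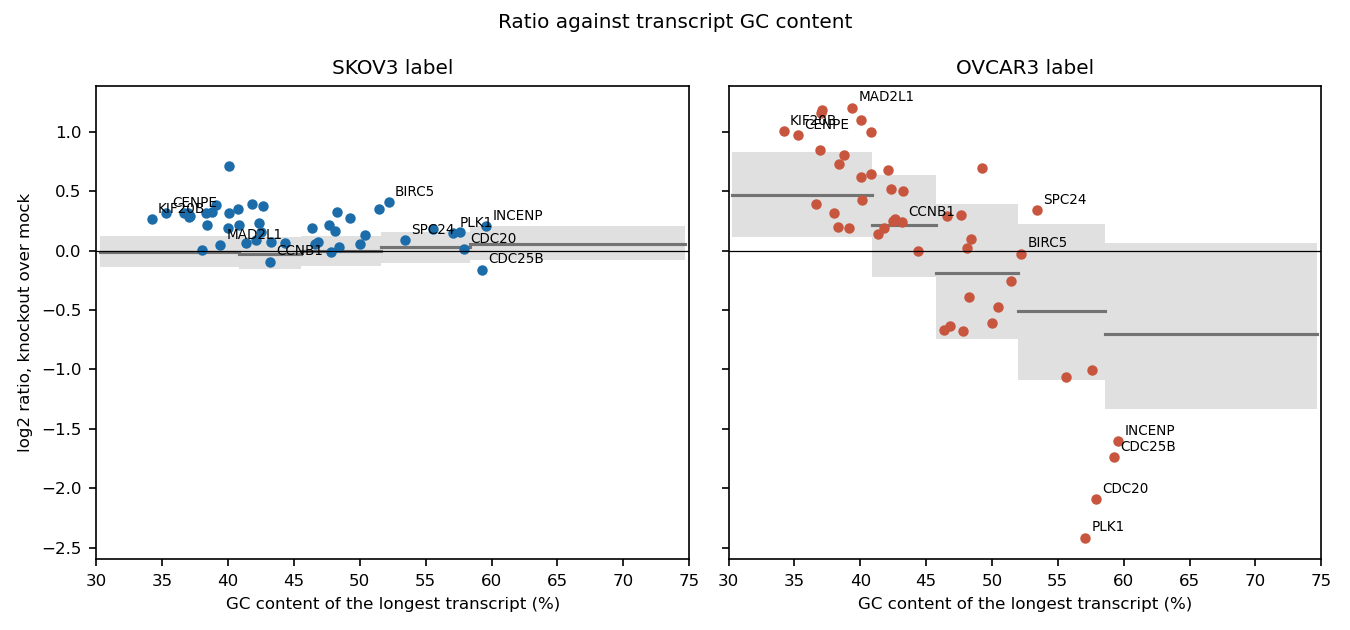
Log2 ratio of KO over mock against the GC content of the longest GENCODE 29 transcript for the 46 genes (points); grey lines and bands give the median and the interquartile range of all protein-coding genes in 5 GC classes of equal size. The OVCAR3 points descend from GC-poor to GC-rich transcripts, with a Spearman correlation of -0.79, and the SKOV3 points descend less, with -0.38.

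The OVCAR3 ratios of the 46 genes were ordered by the GC content of their transcripts. The Spearman correlation across the genes was -0.79 (Pearson -0.85), against -0.38 (Pearson -0.37) in SKOV3. Over 12122 protein-coding genes it was -0.42 in OVCAR3 and 0.13 in SKOV3. These are correlations across genes of the same 2 libraries, and genes are not independent replicates. Protein-coding genes were divided into 5 classes of equal size by GC content. The 17 members in the lowest class, among them CDK1, MAD2L1, CENPF, ASPM and KIF18A, were all above 0 in OVCAR3, with a median of 0.80 against 0.47 for the protein-coding genes of that class. The 12 members of the middle class had a median of -0.32 against -0.19. The 6 members of the next class, among them PLK1, CDC20, AURKB and CCNF, had a median of -1.04 against -0.51, and CDC25B and INCENP in the highest class had -1.74 and -1.60 against a median of -0.70. The transcripts of PLK1, CDC20, CDC25B and INCENP had a GC content of 57.1%, 57.9%, 59.3% and 59.6%, and those of MAD2L1, ASPM and KIF18A of 39.4%, 37.1% and 37.0%. The kinetochore gene SPC24 went against this order, with a GC content of 53.4% and a ratio of 0.34.

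With a trend on GC content and transcript length over protein-coding genes removed, 6 of the 46 genes were still 2-fold lower in OVCAR3 and none was 2-fold higher; UBE2C had joined the lower ones and CCNF had left them. CDC25B (-1.20), PLK1 (-1.90), CDC20 (-1.77), AURKB (-1.01), INCENP (-1.03) and UBE2C (-1.01) were 2-fold lower, 6 of 46, against 12.9% of 12122 protein-coding genes. The removal left a GC order among the 46 genes. Their trend-removed ratios had a Spearman correlation with GC content of -0.48 in OVCAR3 and -0.43 in SKOV3. The share 2-fold higher was 0 of 46, against 11.6%, and MAD2L1 had the highest value left, 0.78. CCNB1 had -0.11 in place of 0.24, and 22 of 46 were above 0, against 43% of protein-coding genes. In SKOV3 the removal left 42 of 46 above 0, against 48.3%, with a median of 0.20. Beside these differences, the OVCAR3 knockout library differed from its mock in its mitochondrial share (21.9% against 5.93%), in the nuclear RNA NEAT1 (1612 against 142 CPM) and in the epithelial markers, where 8 of 8 were lower and the sum was 2254 against 7943 CPM. Summed markers of other cell types were low in all 4 libraries, between 24.5 and 40.1 CPM for 8 mesenchymal, 9.98 and 35.7 CPM for 6 leukocyte and 0.49 and 2.31 CPM for 4 endothelial genes. PTPRC, CD3E, COL3A1 and LUM were at 0 in every library. The part of GC content, composition and these markers in the differences of the 46 genes was not tested.

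**Figure D4:**
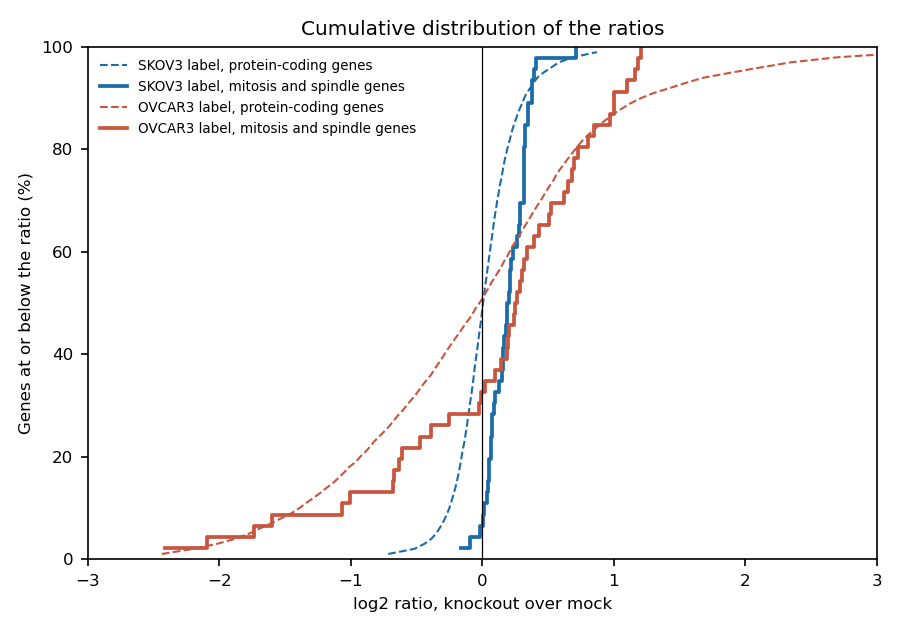
Cumulative share of genes at or below each log2 ratio of KO over mock, for the 46 genes (solid steps) and for all protein-coding genes with at least 1 CPM in 1 of the 2 libraries (dashed), by cell line label. In SKOV3 the solid curve lies to the right of the dashed one with a median of 0.20, and in OVCAR3 the SD is 0.86 for the 46 genes and 1.10 for protein-coding genes.

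The SKOV3 and OVCAR3 pairs share no library, and their values can be set side by side. Of the 46 genes 30 were above 0 in both, against 26.4% of the 13294 genes measured in both pairs. As 43 of the 46 were above 0 in SKOV3 and 31 in OVCAR3, an overlap close to 30 follows from those counts alone. Under every scaling 41 were above 0 in SKOV3 and 21 in OVCAR3, so part of the 30 depended on the scaling. CDC25B and CENPA were below 0 in both, against 25.4%. The counting intervals of the 2 pairs lay on opposite sides of 0 for 10 genes, against 13.4%. A ratio above 0 in SKOV3 and below 0 in OVCAR3 was found for 13 genes, against 24.4%, and CCNB1 alone had the reverse, against 23.8%. The OVCAR3 interval lay wholly above the SKOV3 interval for 17 genes, against 29%, and wholly below it for 15, against 33.5%. The width of an interval depends on the counts, and these shares were not taken over genes of matched counts. The difference between the lines has no test, since each holds 1 library per group.

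Tested over all 4 libraries with the cell line as a block, by edgeR's quasi-likelihood test with Benjamini-Hochberg adjustment over 13670 genes, 0 of the 46 genes passed an adjusted p of 0.05, and neither did any other gene (0%). At an unadjusted p under 0.05 there were 0 of the 46 and 140 of all genes (1.02%), and DESeq2 and limma-voom also called 0 of the 46. With every gene with a count kept, edgeR gave an unadjusted p under 0.05 to 2 of the 46, CDC20 and PLK1, and an adjusted one to 1 of 28739 genes, which was none of the 46. The largest fitted log2 changes were -1.13 for PLK1, -1.04 for CDC20 and 1.01 for SPC25, each with an adjusted p of 0.956 by edgeR. PLK1 was lower in 1 of the 2 lines and SPC25 higher in both. The test has 1 residual degree of freedom per gene, which holds how far the 2 lines disagree in the knockout difference.

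Other genes of mitosis were taken from 9 lists outside the 46. Of 129 measured genes 106 were above 0 in SKOV3, against 51.1% of all genes, with a median of 0.15 and none past 2-fold. In OVCAR3 86 of 129 were above 0, against 56.2% of all measured genes, with a median of 0.32, or -0.02 with the GC and length trend removed. There 12 were 2-fold higher and 12 2-fold lower, shares below the 22.5% and 15.4% of all genes and the 13% and 18.3% of protein-coding ones. Kinetochore genes outside the 46 had 23 of 25 above 0 in SKOV3 (median 0.29) and 22 of 25 in OVCAR3 (0.68, or 0.27 with the trend removed). Of these 25, 7 were 2-fold higher in OVCAR3, against 22.5% of all genes and 13% of protein-coding ones. CENPK, of the inner kinetochore, had 8.64 and 34.4 CPM in the OVCAR3 pair (1.98, 1.72 to 2.27), and CENPI, of the same assembly, 10.0 and 28.9 CPM (1.51, 1.26 to 1.79). Centriole genes had the highest list median in OVCAR3, 0.88, or 0.50 with the trend removed, with 8 of 9 above 0 there and 9 of 9 in SKOV3. Among them were CEP152, a scaffold of centriole duplication, at 8.34 and 51.2 CPM (2.60, 2.36 to 2.89) and SASS6, of the cartwheel, at 1.38 (1.19 to 1.59).

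The 12 genes 2-fold lower in OVCAR3 were spread over 7 of the 9 lists. Condensin, which compacts chromosomes, had 8 of 8 above 0 in SKOV3 and 4 of 8 in OVCAR3, where NCAPD2 had 250 and 70.4 CPM (-1.82, -1.93 to -1.73) and NCAPH2 -1.18 (-1.34 to -1.03). PKMYT1, a kinase that holds CDK1 inactive, had 45.3 and 14.1 CPM (-1.68, -1.91 to -1.46), while CKS2, a small partner of CDK1, had 1.04 (0.93 to 1.16). Entry regulators had 12 of 12 above 0 in SKOV3 and 8 of 12 in OVCAR3. Genes that transcribe the G2 and M programme had 11 of 14 and 8 of 14 above 0. Of all measured genes 51.1% were above 0 in SKOV3 and 56.2% in OVCAR3. The OVCAR3 counts of several of these lists lay near that share. LIN37, a MuvB subunit, had 11.7 and 2.92 CPM (-1.96, -2.51 to -1.52) and MYBL2, the MYB protein that joins MuvB, 85.9 and 41.3 CPM (-1.06, -1.20 to -0.92). The APC/C list had 13 of 17 above 0 in SKOV3 and 11 of 17 in OVCAR3, with its second coactivator FZR1 at -1.22 (-1.44 to -1.02) and the enzyme gene UBE2S at -0.87 (-0.94 to -0.80).

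In the remaining lists the 2 directions also stood together. Beside their counts above 0 stand the shares of all measured genes, 51.1% in SKOV3 and 56.2% in OVCAR3. Among the other checkpoint genes KNTC1, of the complex that brings dynein to kinetochores, had 31.7 and 91.6 CPM in OVCAR3 (1.53, 1.38 to 1.68) and MAD1L1, the anchor of MAD2, 66.4 and 20.2 CPM (-1.71, -1.90 to -1.53). The cohesin list had 8 of 13 above 0 in SKOV3 and 5 of 13 in OVCAR3, with SMC1A, a core ring subunit, at -1.17 (-1.28 to -1.07) and ESPL1, separase, at -1.01 (-1.22 to -0.81). Other spindle and cytokinesis genes had 17 of 24 above 0 in SKOV3 and 16 of 24 in OVCAR3, with KIF22, a chromosome-arm kinesin, at -1.57 (-1.71 to -1.43) and TUBG1, gamma-tubulin, at -1.30 (-1.48 to -1.13).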

How the data were processed

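RNA was sequenced from 4 cultures, 1 library per group and titles as the source of the grouping. RNA was harvested, per the labels' protocols, in Trizol and libraries were built from 1.3 μg with the directional NEBNext Ultra II kit. Per the submitters' processing notes, TopHat and GRCh38 were used. No source used here names the counting tool, its annotation or its strand setting. Values were deposited as raw counts per gene symbol, not normalised. Repeated symbols (8458 of 58173 rows, at most 0.465% of a library's counts) were summed, and no row lacked a gene name. No source says that the cultures were independent. With the line as a block, a p-value weighs the mean knockout difference against how far the lines disagree in it. Technical scatter may be part of that disagreement, and the spread between cultures of 1 kind was not measured.

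TMM factors (edgeR 4.0.16, R 4.3.3) came from the 13670 genes that reached 1 CPM in 2 or more libraries, and were 1.02, 1.04, 1.01 and 0.931 for SKOV3 mock, SKOV3 KO, OVCAR3 mock and OVCAR3 KO. Log2 ratios carry a prior count of 2. Intervals are exact 95% Clopper-Pearson bounds on the ratio of counts, without the prior count, and cover counting error only, since reads had no molecular identifiers. Genes were measured in a comparison at CPM of at least 1 in 1 of its 2 libraries, and the size rule is an absolute log2 ratio of at least 1. Both lines were tested with glmQLFit and glmQLFTest, with DESeq2 1.42.0 and limma 3.58.1 as alternatives. GC content and length came from the longest GENCODE 29 transcript, and their trend from natural splines with 5 degrees of freedom. The methods were run on simulated counts as a check that they work, and the power of the test in these data is not given here.

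The 46 genes, their grouping and the other lists were chosen with earlier results of these data known. Named genes are CCNB1, the highest and lowest OVCAR3 ratio of each group, genes past 2-fold, and the 5 highest and 5 lowest SKOV3 ratios. In the other lists they are the 2 largest OVCAR3 ratios per list in either direction at 5 CPM or more in 1 OVCAR3 library. CCNA2, CCNB2, BUB1, CENPE, NDC80, UBE2C, SPC24, CDCA8 and KIF2C are named in addition, after their values were seen. TMM factors from all genes with a count, and from genes with CPM of at least 5, were added as alternatives after seeing the data.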

Additional observations from a re-analysis of the deposited data

Results flagged for a closer look

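For 10 of the 46 genes the counting intervals of the 2 labels lay on opposite sides of 0, so that 1 pair was higher and the other lower, against 13.4% of the 13294 genes measured in both pairs. That share was not taken over genes of matched counts, on which the width of an interval depends. The difference between the lines was not tested, since each group holds 1 library. CCNB1 was -0.09 in SKOV3 and 0.24 in OVCAR3, and the OVCAR3 value did not keep its sign under every scaling. In the other 9 the SKOV3 ratio was above 0 and the OVCAR3 ratio below it, under all 6 scalings. PLK1 had 0.15 and -2.42, INCENP 0.21 and -1.60, AURKB 0.18 and -1.07, and CCNF 0.15 and -1.01. KIF4A had 0.19 and -0.67, TPX2 0.08 and -0.64, KIF2C, a kinesin that takes microtubules apart, 0.13 and -0.48, MKI67 0.33 and -0.39, and CDCA8 (borealin) 0.35 and -0.26.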

How the results depend on the processing

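No paired analysis was possible because every group holds replicate 1 only, so that no pairing by number exists beyond the block for the line in the test over both lines. Leaving out 1 library leaves no residual degree of freedom, and without the OVCAR3 KO library no OVCAR3 ratio exists. In SKOV3 each of the 46 ratios stayed within its counting interval under all 8 alternatives, and at 1.5-fold 1 gene was higher and 0 lower. In OVCAR3 the 6 genes 2-fold higher became 0 with DESeq2 size factors, 3 without a scaling factor, 0 with TMM factors from all genes with a count, 0 with the GC and length trend removed, 14 at 1.5-fold and 0 at 3-fold. The higher ones became 7 with TMM factors from genes with CPM of at least 5, and 4 with mitochondrial rows left out. The 6 genes 2-fold lower became 4 with TMM factors from genes with CPM of at least 5, and 10 at 1.5-fold. The OVCAR3 median of 0.26 became 0.047 with DESeq2 size factors, -0.035 with TMM factors from all genes with a count and -0.072 with the trend removed. It became 0.14 without a scaling factor, and rose to 0.36 with TMM factors from genes with CPM of at least 5. Between the mock libraries the count of 1 gene 2-fold higher became 2 at 1.5-fold and 0 at 3-fold, and that of 2 genes 2-fold lower became 9 and 0, and 1 with the trend removed. With no block for the line, 0 of the 46 genes passed. In OVCAR3 31 genes above 0 became 25 with DESeq2 size factors, 21 with TMM factors from all genes with a count and 22 with the trend removed. They became 29 without a scaling factor and 33 with TMM factors from genes with CPM of at least 5. Among genes whose counting interval did not span 0, DESeq2 size factors took ratios below 0 for NEK2 (-0.020), BUB3 (-0.070), KIF11 (-0.0090) and TOP2A (-0.014). TMM factors from all genes with a count did so for CCNB1 (-0.048), AURKA (-0.00010), NEK2 (-0.10), BUB1 (-0.042), BUB3 (-0.15), KIF11 (-0.091), NUSAP1 (-0.029) and TOP2A (-0.096). The trend removal did so for CCNB1 (-0.11), NEK2 (-0.27), BUB1 (-0.041), BUB3 (-0.16), NDC80 (-0.15), KIF11 (-0.30), HMMR (-0.29), NUSAP1 (-0.10), ECT2 (-0.21) and TOP2A (-0.24). Scaling moved all OVCAR3 ratios together. The cause of the other shifts was not tested.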

Other observations

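Per kilobase of the longest transcript, CDC20 was the highest of the 46 genes in the SKOV3 mock (164 CPM per kilobase), the SKOV3 knockout (165) and the OVCAR3 mock library (131), followed by UBE2C at 124, 129 and 110. In the OVCAR3 knockout library CDC20 was at rank 16 with 30.7 CPM per kilobase, and CDK1 led with 112. PLK1 stood at ranks 20, 18 and 19 in the first 3 libraries and at rank 45 in the OVCAR3 knockout, above SPC25 only. The longest transcript can be longer than the one expressed, so the order is approximate.

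Near-identical copies were also counted. KIF4B, a retrocopy of KIF4A, had between 0 and 8 counts, PTTG2, a copy of securin, between 0 and 6, CDC20P1 between 9 and 13 and UBE2CP5 between 89 and 152. The readthrough symbol BUB1B-PAK6 had 360 and 268 counts in the SKOV3 mock and knockout libraries and 259 and 84 in the OVCAR3 ones. Values of KIF4A, PTTG1, CDC20, UBE2C and BUB1B are uncertain by the reads they share with these symbols.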
